A study of Drosophila melanogaster with 4 samples.

Results

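A set of 10 regulators of neuronal RNA was followed across nuclear RNA libraries from Drosophila melanogaster heads. They are the ELAV family genes elav, fne and Rbp9, the splicing regulators bru3, mbl, ps and Rbfox1, the RNA editing enzyme gene Adar, and the translational regulators Fmr1 and pum. The genes were named as a group by what they are known to do, with earlier results of these data known, and all 10 were among the 17137 genes of the deposited count table. The libraries came from INTACT, a pull-down of nuclei through a tag in the nuclear envelope, here UNC84 fused to GFP and placed under UAS control. In a split-Gal4 driver the transcription factor Gal4 is assembled from 2 parts, each made by its own promoter, so that the tag marks cells in which both promoters are used. In 1 genotype (VAChT:VGlut) the promoters were those of VAChT, the vesicular transporter of acetylcholine, and VGlut, that of glutamate. In the other (VAChT:VGAT) VAChT was combined with VGAT, the vesicular transporter of GABA. Both groups thus carried the VAChT part and the tag, were untreated, and were collected at 10 days of age. Each group had 2 libraries of poly(A) RNA. The labels do not give the sex of the flies, how many flies went into a library or whether the libraries of a group came from separate collections, so p-values measure only the spread between these libraries.

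ELAV proteins bind uridine-rich stretches of young transcripts through RNA recognition motifs, and in neurons they set exon choice and the use of distal polyadenylation sites. Bruno, Muscleblind, Nova and Fox proteins each bind short motifs near exons and raise or lower their inclusion. Adar converts adenosine to inosine in double-stranded stretches, chiefly in messages for ion channels and synaptic proteins, while Fmr1 and Pumilio proteins hold back translation of bound messages, also at synapses. Changes in exon choice, editing or translation cannot be read from counts per gene, which measure only how much RNA of each regulator was recovered.

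The libraries held 1490390 to 2556988 counts, and every member passed the filter on low counts, with 254 counts in the lowest case. Counts per 1000000 of a library's total, scaled by TMM (a factor that equalises the bulk of genes), are given as CPM. Replicates were close. Their chi-square statistic per degree of freedom, which is 1 under counting noise alone, was 1.22 for VAChT:VGlut and 1.19 for VAChT:VGAT. This does not show whether they came from separate collections. The common coefficient of variation between replicates that edgeR estimated was 2.18%, well below the values of 0.1 and 0.2 that were fixed in alternatives. Of 8246 genes tested, 970 (11.8%) had a Benjamini-Hochberg adjusted p under 0.05 in the quasi-likelihood test of edgeR. Of these 513 (6.22% of genes tested) were higher in VAChT:VGlut and 457 (5.54%) lower. The total was 513 without VAChT:VGlut replicate 2 and 613 without VAChT:VGAT replicate 1. With library size alone as the scaling, 401 of 975 calls were higher in VAChT:VGlut.

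The members are long genes. Their exonic length ran from 4904 bases in Fmr1 to 15094 in mbl, and when tested genes were split by length into 4 groups of equal size, all 10 fell in the group of longest genes (percentiles 82.9 to 99.3). On dm6, the shortest span was that of Fmr1, at 8702 bases, and the longest that of bru3, at 281494. Ensembl lists 4 transcripts for elav and 19 for mbl, with the other members in between, so each count sums many isoforms. In 9 of the 10 genes no exon base was shared with another gene on the same strand. In Adar 94.3% of exon bases were its own and the rest lay within prage. Sequence shared between the paralogs elav, fne and Rbp9 was not examined.

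Per kilobase of exon, fne and ps were the most abundant members and elav was the lowest. The mean over the 4 libraries was 155 CPM per kilobase for fne and 143 for ps, and their libraries overlapped (137 to 171 for fne, 135 to 156 for ps), although fne ranked first in every library. Next came bru3 with 95.3, Rbp9 with 83.2 and Rbfox1 with 72.1 CPM per kilobase, and neighbours among these overlapped. The other 5 members formed a lower tier that was separated from Rbfox1. Fmr1 had 36.8 CPM per kilobase, pum 35.0, mbl 34.4, Adar 32.6 and elav 30.9. Every neighbouring pair of this tier overlapped, and mbl ranked between 6 and 10 depending on the library. Per kilobase, a gene widely used to mark fly neurons was thus the lowest of the 10 in the mean of these nuclei. Its paralog fne was 5.03 times as abundant on that measure. By CPM with no division by length, elav ranked 8 and Fmr1 was last.

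**Figure D1:**
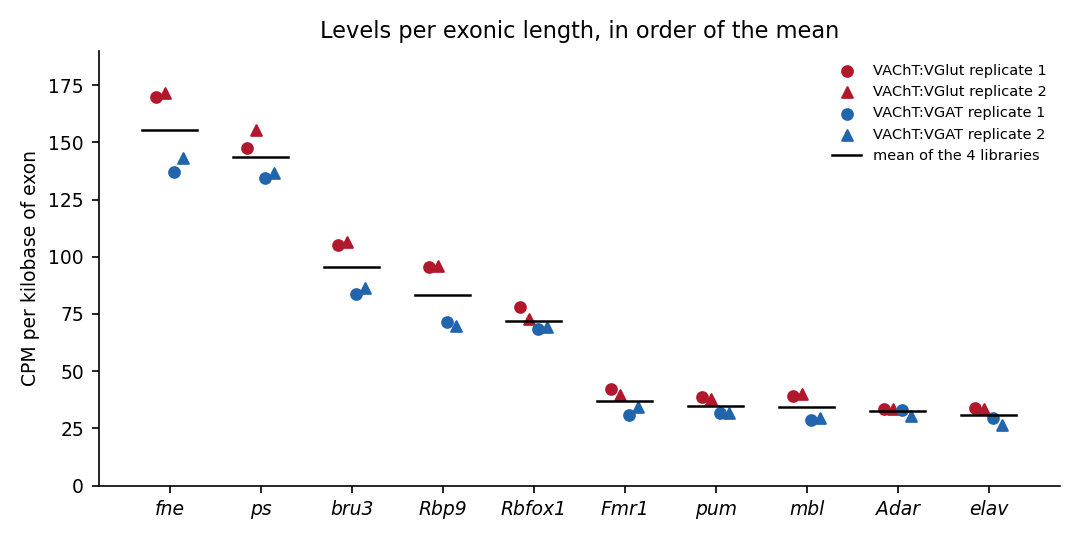
Level of each regulator in CPM per kilobase of exon (linear axis from 0), with 1 point for each library and a line at the mean of the 4 libraries. An upper tier from fne (155) to Rbfox1 (72.1) stands apart from a lower tier between Fmr1 (36.8) and elav (30.9).

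All 10 members had a higher mean in VAChT:VGlut than in VAChT:VGAT, and 8 of them were past the threshold: elav, fne, Rbp9, bru3, mbl, ps, Fmr1 and pum. Rbfox1 and Adar were not, and ps, Rbfox1 and Adar took the other sign when libraries were scaled to synaptic genes or when a trend with gene length was removed. When scaled to synaptic genes 2 members were past the threshold, or 20% against 24.8% of all genes, and the median log2 fold change of the members was 0.06. Without the length trend 7.82% of all genes were past the threshold, 229 higher and 416 lower. Of the members 4 were, all higher, with a median of 0.10. With the variation between replicates fixed at 0.1, edgeR called 0 of them (4 at an unadjusted p under 0.05), against 2.26% of all genes. The largest differences were those of mbl (1.36-fold) and Rbp9 (1.35-fold). The share called was 80% of the members, all in the higher direction, against 11.8% of all genes tested (6.22% higher and 5.54% lower). In the group of longest genes 19.3% were called, with 17.2% higher in VAChT:VGlut. Among the 5121 genes with a mean of at least 50 counts, 18.6% were called, 477 higher and 476 lower. The same 8 members were called in that setting. With TMM scaling the median log2 fold change of the members was 0.28, beside -0.01 over all genes tested and 0.10 in the group of longest genes. In all 10 members both VAChT:VGlut libraries lay above both VAChT:VGAT libraries, which held for 23.6% of tested genes and for 44.5% of the group of longest genes. Every difference was under 1.5-fold, and 0 members passed an edgeR test against a 1.5-fold change (0 also at an unadjusted p under 0.05). Of all genes, 0.558% passed that test. DESeq2 called 6 of the 10, against 4.49% of all genes. In bulk RNA such as this, fewer cells of a type and less RNA per cell cannot be told apart.

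**Figure D2:**
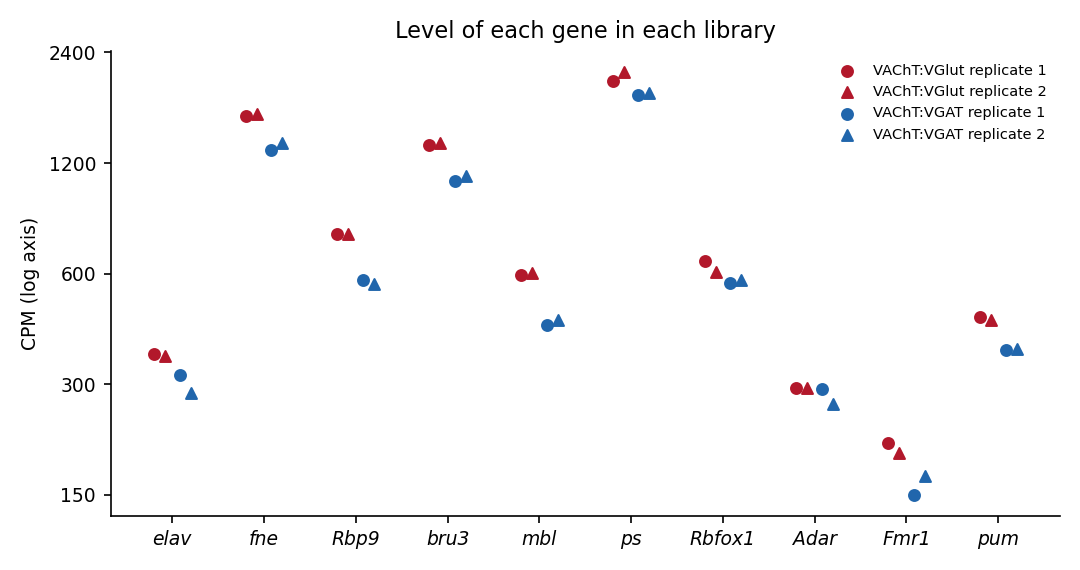
CPM of each regulator (log axis) in the 4 libraries, red for VAChT:VGlut and blue for VAChT:VGAT, with circles for replicate 1 and triangles for replicate 2. Red points lie above blue ones for all 10 genes, by the widest margin in Rbp9 and mbl and by almost none in Adar; scaled to synaptic genes, ps, Rbfox1 and Adar have fold changes below 0.

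With TMM scaling each of the 3 ELAV family genes was higher in VAChT:VGlut. The call of Rbp9 held when scaled to synaptic genes and without the length trend, that of fne in the latter setting alone, and that of elav in neither. The summed level of elav, fne and Rbp9 was 299 and 301 CPM per kilobase in VAChT:VGlut and 238 and 239 in VAChT:VGAT. The libraries of a group lay within a few units of each other, and the groups were far apart on that scale. elav (FBgn0260400; dm6 chromosome X, 509235 to 523226, minus strand), the nuclear family member that is made in nearly all neurons, had 363 and 359 CPM for VAChT:VGlut against 318 and 285 for VAChT:VGAT. The VAChT:VGAT libraries differed from each other more than the VAChT:VGlut ones did, and the groups did not overlap. On the log2 scale the fold change was 0.25 (SE 0.06; adjusted p = 0.00344 by edgeR). Without VAChT:VGAT replicate 2, the lowest library, it was 0.18 with an adjusted p from edgeR of 0.144, and DESeq2 gave 0.26 with 0.0706. It was 0.03 when scaled to synaptic genes (edgeR adjusted p = 0.786) and 0.07 without the length trend (edgeR adjusted p = 0.598).

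fne (FBgn0086675; chromosome X, 12917477 to 12950417, plus strand) encodes a family member that is mostly cytoplasmic and can take over nuclear tasks of Elav when that protein is lost. It had 1615 and 1631 CPM for VAChT:VGlut against 1305 and 1361 for VAChT:VGAT, so the gap between the groups was several times the gap within either. This is a log2 fold change of 0.29 (SE 0.04, edgeR adjusted p = 1.39e-09), and of 0.06 when scaled to synaptic genes (edgeR adjusted p = 0.186). Rbp9 (FBgn0010263; chromosome 2L, 2954762 to 2968434, plus strand) is known from adult neurons and from the female germ line. It had 769 and 772 CPM for VAChT:VGlut against 577 and 562 for VAChT:VGAT, and its lowest VAChT:VGlut library was 1.33 times its highest VAChT:VGAT library. For Rbp9 the log2 fold change was 0.43 (SE 0.05, edgeR adjusted p = 1.97e-11).

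Within the family, fne supplied most of the RNA. Of the summed level per kilobase, the VAChT:VGlut mean was 56.9% ± 0.19 (SD, n = 2) for fne, and the VAChT:VGAT mean was 58.6% ± 1.60 (SD, n = 2). For elav the same means were 11.2% ± 0.13 and 11.8% ± 0.95 (SD, n = 2 each). The share of elav overlapped between the groups, while that of fne was lower in VAChT:VGlut by a narrow margin without overlap. Rbp9 held 31.9% of each VAChT:VGlut library but 30.1% and 29.1% of those of VAChT:VGAT, so its share was higher in VAChT:VGlut without overlap. An exact permutation test of 2 libraries against 2 cannot give a two-sided p below 0.333, so this shift of 2.29 percentage points was not tested further.

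Of the splicing regulators outside the family, bru3, mbl and ps were past the threshold and Rbfox1 was not. bru3 (FBgn0264001; chromosome 3L, 13521907 to 13803400, minus strand), a Bruno protein of the CELF class, had 1347 and 1362 CPM for VAChT:VGlut against 1073 and 1106 for VAChT:VGAT. Both pairs of libraries were tight and far from each other (log2 fold change 0.32, SE 0.04, edgeR adjusted p = 4.08e-10). Its relatives bru1 and bru2, picked for mention after their values were seen, were far less abundant, with 12.8 and 6.35 CPM per kilobase in VAChT:VGlut, and neither was past the threshold (log2 fold changes -0.25 and 0.12, edgeR adjusted p = 0.152 and 0.763).

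mbl (FBgn0265487; chromosome 2R, 17216549 to 17379376, plus strand) encodes Muscleblind, a splicing factor of muscle, eye and neurons. It had 595 and 602 CPM for VAChT:VGlut against 434 and 448 for VAChT:VGAT, a gap between the groups many times wider than that within either. With a log2 fold change of 0.44 (SE 0.05, edgeR adjusted p = 3.40e-10), mbl differed most among the members. The gene also gives rise to an abundant circular RNA, which has no poly(A) tail and which counts over exons do not separate.

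ps (FBgn0261552; chromosome 3R, 9417940 to 9455500, plus strand) is pasilla, the fly counterpart of the mammalian Nova proteins. It had 2012 and 2125 CPM for VAChT:VGlut against 1837 and 1866 for VAChT:VGAT. The groups did not overlap, and VAChT:VGlut replicate 2 stood above the other 3 libraries. The log2 fold change was 0.16 (SE 0.03, edgeR adjusted p = 0.000147), the smallest of the called members, and it was -0.06 when scaled to synaptic genes and -0.04 after removal of the length trend.

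Rbfox1 (FBgn0052062; chromosome 3L, 10481412 to 10594012, plus strand), the fly Fox protein, which acts in neurons, muscle and germ line, had 648 and 605 CPM for VAChT:VGlut against 567 and 576 for VAChT:VGAT. VAChT:VGlut replicate 1 stood above the other 3 libraries. The log2 fold change was 0.13 (SE 0.05, 95% interval 0.03 to 0.23, edgeR adjusted p = 0.0753). Without VAChT:VGlut replicate 1 it was 0.09 (edgeR adjusted p = 0.441) and without VAChT:VGlut replicate 2 it was 0.19 (edgeR adjusted p = 0.0476). Leaving out a VAChT:VGAT library gave adjusted p-values from edgeR of 0.355 and 0.164.

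Adar (FBgn0026086; chromosome X, 1773725 to 1788065, plus strand), the fly's single adenosine deaminase for messages, showed the smallest difference. It had 293 CPM in both VAChT:VGlut libraries and 291 and 266 for VAChT:VGAT, so 3 of the 4 libraries were nearly equal and VAChT:VGAT replicate 2 was lower. The log2 fold change was 0.07 (SE 0.07, 95% interval -0.07 to 0.20, edgeR adjusted p = 0.625). The value was 0.14 without VAChT:VGAT replicate 1 and 0.01 without VAChT:VGAT replicate 2. No difference was detected with all 4 libraries, and values within the interval were not excluded. The 95% intervals of Rbp9 (0.34 to 0.53), mbl (0.34 to 0.55), bru3 (0.24 to 0.39) and fne (0.22 to 0.36) did not reach that of Adar. The difference between members was not tested.

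With TMM scaling both translational regulators were higher in VAChT:VGlut, and neither was past the threshold when scaled to synaptic genes or without the length trend. Fmr1 (FBgn0028734; chromosome 3R, 10101420 to 10110121, minus strand), the fly counterpart of the fragile X protein, was the member with the fewest counts, with 415 and 493 in VAChT:VGlut and 295 and 254 in VAChT:VGAT. As CPM these were 208 and 195 against 150 and 168, so that replicates differed visibly in both groups while the groups stayed apart. The difference was 0.34 on the log2 scale (SE 0.08, edgeR adjusted p = 0.00238). Leaving out a library gave 0.25 to 0.42. The call was lost without VAChT:VGlut replicate 1 (0.30, edgeR adjusted p = 0.0584) and without VAChT:VGAT replicate 1 (0.25, edgeR adjusted p = 0.173), and DESeq2 gave 0.35 with an adjusted p of 0.0786. Fmr1 was at 0.12 when scaled to synaptic genes (edgeR adjusted p = 0.310).

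pum (FBgn0003165; chromosome 3R, 9066343 to 9237682, minus strand) encodes Pumilio, which binds messages with Nanos and Brat in the embryo and holds back sodium channel messages in neurons. It had 456 and 448 CPM for VAChT:VGlut against 373 and 375 for VAChT:VGAT, with little spread in either group (log2 fold change 0.27, SE 0.06, edgeR adjusted p = 0.000278). Scaled to synaptic genes it was at 0.05 (edgeR adjusted p = 0.559), and without the length trend at 0.09 (edgeR adjusted p = 0.453). Its embryonic partners were looked up after their values were seen. nos had 0 counts in both VAChT:VGlut libraries and 3 and 5 counts in VAChT:VGAT and was not tested, and brat had 187 and 159 CPM (log2 fold change 0.23, edgeR adjusted p = 0.0642).

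The members were then set against synaptic genes of neurons. The list held nSyb, Syt1, brp, Syx1A, Snap25, Csp, Rab3, Rim, unc-13 and cpx, which are genes of vesicle release and of the active zone. In VAChT:VGlut 7 of these 10 were higher and 0 were lower at an edgeR adjusted p under 0.05, against 11.8% of all genes called. Their median log2 fold change was 0.23, and Rim (0.37) and cpx (0.24) had the smallest p-values. The list was not uniform, with values from -0.05 in unc-13 to 0.46 in Syx1A. When libraries were scaled to these genes, 3 of them were called higher and 3 lower, against 24.8% of all genes called. Their summed level was 12729 to 12786 CPM in VAChT:VGlut and 11031 to 11393 in VAChT:VGAT.

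Scaled to the synaptic genes, 2 members were past the threshold, Rbp9 and mbl, both still higher in VAChT:VGlut. Their log2 fold changes were 0.21 (edgeR adjusted p = 0.000716) and 0.22 (edgeR adjusted p = 0.00138). This scaling moved the median of all tested genes to -0.23, and 2045 genes (24.8%) were past the threshold under it, 1944 of them lower in VAChT:VGlut. Under it bru3 was at 0.09 (edgeR adjusted p = 0.0624), and Adar was the lowest at -0.16 (edgeR adjusted p = 0.0857). Without any model, the CPM of mbl was 4.67% and 4.71% of the summed synaptic CPM in VAChT:VGlut and 3.94% and 3.93% in VAChT:VGAT. For Rbp9 the corresponding values were 6.04% and 6.03% against 5.23% and 4.93%. Relative to synaptic genes, 6 members were higher in both VAChT:VGlut libraries, and elav, ps and Rbfox1 overlapped. Adar was lower in both by a narrow margin, at 2.30% and 2.29% against 2.63% and 2.33% in VAChT:VGAT. The share of all genes without overlap on this measure was not computed, so these counts are not read as a result about the members. By CPM, both VAChT:VGlut libraries lay above both VAChT:VGAT libraries in 1950 of 8246 tested genes and below them in 2114. Separation by CPM is therefore common, and these numbers do not carry over to the measure relative to synaptic genes.

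**Figure D3:**
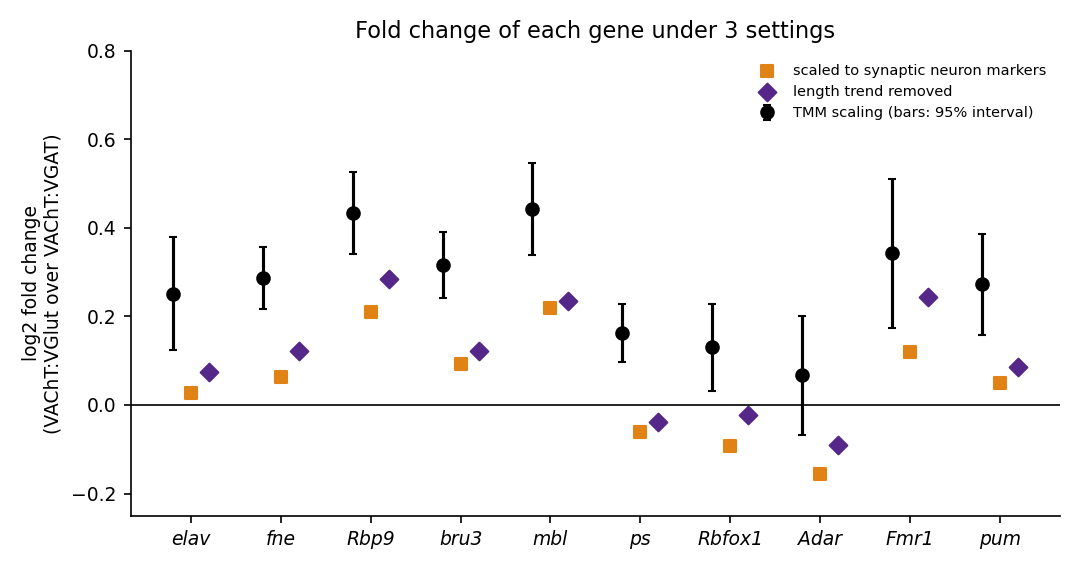
Log2 fold change of each regulator, VAChT:VGlut over VAChT:VGAT, with TMM scaling (black, with 95% intervals), with libraries scaled to 10 synaptic genes (orange) and after removal of the trend with exonic length (purple). All 10 black points are above 0; orange and purple points are below 0 for ps, Rbfox1 and Adar, and Rbp9 and mbl keep the highest orange values, at 0.21 and 0.22.

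Exonic length moved with the fold change across genes. The Spearman rho over the 8246 tested genes was 0.33, a description across genes that share the same 4 libraries, and the median log2 fold change went from -0.14 in the group of shortest genes to 0.10 in that of longest genes. When a smooth trend with length was removed before the test, 7.82% of all genes were past the threshold, 229 higher and 416 lower. Of the members 4 were, all higher. They were Rbp9 at 0.28 (edgeR adjusted p = 4.49e-06), mbl at 0.23 (edgeR adjusted p = 0.000975), fne at 0.12 (edgeR adjusted p = 0.0189) and bru3 at 0.12 (edgeR adjusted p = 0.0279). Fmr1, the shortest member, was at 0.24 (edgeR adjusted p = 0.0634). Of the members, Rbp9 and mbl were the ones called both after this correction and under scaling to synaptic genes.

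**Figure D4:**
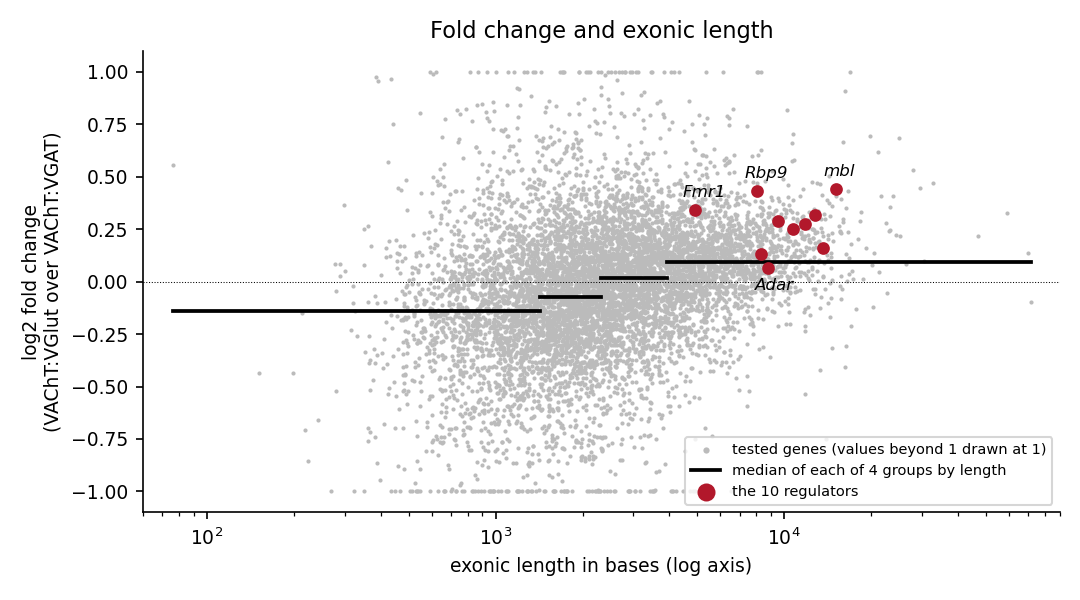
Log2 fold change of every tested gene against its exonic length in bases (log axis), with the 10 regulators in red and a black line at the median of each of 4 equal groups by length. Medians go from -0.14 to 0.10 with length, and Rbp9, mbl and Fmr1 lie well above the line of the longest genes while Adar lies just below it; with the trend removed, ps, Rbfox1 and Adar fall below 0.

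Among 27 further splicing regulators, 8 were higher and 1 was lower in VAChT:VGlut (33.3% called, against 11.8% of all genes), and their median log2 fold change was 0.12. Those with the smallest p were sm (0.43, edgeR adjusted p = 1.08e-11), a protein akin to hnRNP L, and mub (0.35, edgeR adjusted p = 6.29e-10), a KH domain protein named for the mushroom body. They were followed by shep (0.21) and the hnRNP gene Hrb27C (0.24), and the lower one was Rox8 (-0.29, edgeR adjusted p = 0.00422), a protein akin to TIA-1. Scaled to synaptic genes, 2 of these 27 were higher and 7 lower (33.3% called). Under that scaling 24.8% of all genes were called, 1944 of the 2045 lower. With the length trend removed 2 of the list were higher and 2 lower (14.8% called). Of all genes 7.82% were then called, 229 higher and 416 lower. The lean of this list depended on the scaling, as did that of all genes.

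Regulators of the translation, transport or stability of messages were also called more often toward VAChT:VGlut than toward VAChT:VGAT. Of 23 genes listed, 21 were tested, and 10 were higher and 1 was lower in VAChT:VGlut (52.4% called, against 11.8% of all genes and 19.3% of the group of longest genes), and their median log2 fold change was 0.22. The smallest p was that of AGO1, the Argonaute of the microRNA pathway and a partner of Fmr1 protein. Its CPM of 991 and 946 in VAChT:VGlut compared with 639 and 609 in VAChT:VGAT, a log2 fold change of 0.63 (edgeR adjusted p = 8.64e-19), above that of any of the 10 members. Unr (0.40), the Musashi relative Rbp6 (0.24) and the ataxin-2 gene Atx2 (0.42) came next. The lower gene was me31B (-0.44, edgeR adjusted p = 0.00959), an RNA helicase of processing bodies. Scaled to synaptic genes, 3 were higher and 2 lower (23.8% called, against 24.8% of all genes, 1944 of those 2045 lower). Without the length trend 4 were higher and 1 lower (23.8% called, against 7.82% of all genes, 229 higher and 416 lower).

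Textbook RNA targets of the members were mixed. Of 10 such genes 4 were higher and 0 were lower (40% called, against 11.8% of all genes and 19.3% of the group of longest genes). Their median log2 fold change was 0.09. The sodium channel gene para, whose message is edited by Adar and bound by Pumilio, was at 0.35 (edgeR adjusted p = 1.28e-15), and the GABA receptor gene Rdl, also edited, at 0.27 (edgeR adjusted p = 1.34e-09). The microtubule protein gene futsch, repressed by Fmr1, was at 0.25, and the edited calcium channel gene cac at 0.15. The splicing targets of Elav, ewg, Nrg and arm, were at -0.03, 0.04 and 0.04, with adjusted p from edgeR of 0.882, 0.786 and 0.692. Scaled to synaptic genes, 1 of the 10 was higher and 5 were lower (60% called). Under that scaling 24.8% of all genes were called, 1944 of the 2045 lower. Without the length trend 2 were higher and 1 lower (30% called, against 7.82% of all genes, 229 higher and 416 lower).

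**Figure D5:**
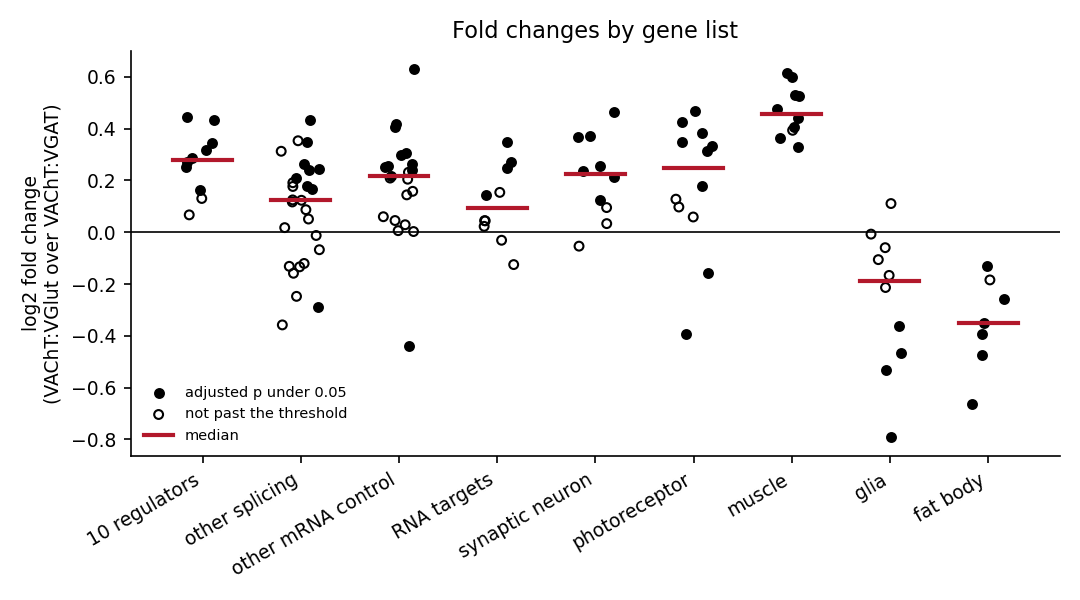
Log2 fold change, VAChT:VGlut over VAChT:VGAT with TMM scaling, of the 10 regulators, of other RNA regulators and targets, and of marker genes of 5 cell types. Each point is 1 gene, filled where the edgeR adjusted p is under 0.05, with the median in red; medians are 0.28 for the regulators, 0.23 for synaptic genes, 0.46 for muscle, -0.19 for glia and -0.35 for fat body, and scaled to synaptic genes ps, Rbfox1 and Adar of the regulators turn negative.

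Markers of other cells were present in both groups and moved too. Over all genes tested, 6.22% were called higher in VAChT:VGlut and 5.54% lower with TMM scaling. Of the 10 glia markers 0 were higher and 4 lower in VAChT:VGlut, led by Gs2 (-0.47) and alrm (-0.79), and their summed level was 2105 to 2174 CPM against 2694 to 2698. Of the 8 fat body markers 7 were tested, and 0 were higher and 6 lower, with summed levels of 27256 to 27883 against 33766 to 33807 CPM. Most of that level came from the yolk protein genes Yp1, Yp2 and Yp3, with means of 11325, 6932 and 5339 CPM in VAChT:VGlut. In VAChT:VGAT their means were 13550, 8836 and 7004 CPM. The sex of the flies is not labelled, and its part in these values was not tested. Photoreceptors are neurons that also make Elav, and of their 12 markers 7 were higher and 2 lower, with summed levels of 27541 to 27876 against 22179 to 22299 CPM. Of the 10 muscle markers 9 were higher and 0 lower, with summed levels of 1505 to 1511 against 1082 to 1090 CPM, and mbl and Rbfox1 also act in muscle. Scaled to synaptic genes, 0 glia markers were higher and 8 lower, and 0 and 7 of the fat body list. The photoreceptor list then had 6 higher and 3 lower, and the muscle list 3 and 0. Under this scaling 24.8% of all genes were called, and 1944 of those 2045 were lower in VAChT:VGlut. Fbp1 of the fat body list was at 0 in 3 libraries and had 1 count in the other, and no other marker was at 0. The libraries are labelled as neuronal nuclei, and libraries of input or of untagged nuclei are not analysed here, so the share of RNA from tagged nuclei is not known. The part of these other cells in the differences of the 10 regulators was not tested.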

How the data were processed

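Per the file headers, the authors counted read pairs with featureCounts 1.5.1 on the reverse strand over exons of the dm6 refGene annotation, and deposited raw counts per gene for the 4 libraries with no normalization. The submitters' processing notes also name fastp, STAR and DESeq2, without versions. Exonic length comes from the same deposited table, in which 0 columns of values were left unused. Names, FlyBase identifiers and transcript numbers were matched to Ensembl BDGP6, which uses dm6 coordinates. All spans of the 10 members overlapped on the same strand.

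The test was edgeR 4.0.16 under R 4.3.3 (glmQLFit and glmQLFTest), with the 4 libraries in 1 fit and no covariate beside genotype, after filterByExpr (minimum count 10, minimum total 15) and TMM scaling (factors 0.988 to 1.01). P-values were adjusted over 8246 genes by the Benjamini-Hochberg method, with a threshold of 0.05. Each SE is the absolute fold change divided by the root of F. CPM are counts per 1000000 of the TMM-scaled library total. Alternatives were other scalings (including median ratios over 10 synaptic genes), filters, limma-voom 3.58.1, DESeq2 1.42.0, fixed variation, thinning, a loess trend with length (span 0.5), a replicate block and leaving out each library.

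All 10 members are named. From each list of other RNA regulators and targets, up to 4 genes in each direction with the smallest p past the threshold are named. Of each marker list up to 2 are named by p, and the Yp genes are named for their level. The members and lists were chosen with earlier results of these data known. Amplified copies, unless removed, are not independent molecules, so counting noise is a lower limit.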

Additional observations from a re-analysis of the deposited data

How the results depend on the processing

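Over 17 alternatives and 10 members, 164 of 170 fold changes kept their direction, 39 calls were lost and 2 gained. The 6 reversals were those of ps (-0.061), Rbfox1 (-0.093) and Adar (-0.157) when scaled to synaptic genes, and of ps (-0.038), Rbfox1 (-0.022) and Adar (-0.091) after removal of the length trend. The median fold change of the members, 0.28, was 0.245 with library size alone, 0.261 at a mean of at least 50 counts, 0.262 after thinning, 0.056 scaled to synaptic genes and 0.103 without the length trend, and 0.260 to 0.296 when a library was left out. Members past the threshold, 8, were 2 scaled to synaptic genes, 4 without the length trend, and 7 to 9 when a library was left out. They were 0 in the test against a 1.5-fold change (0 at an unadjusted p under 0.05 in edgeR) and 0 with variation fixed at 0.1 or 0.2 (4 and 0 at an unadjusted p under 0.05), where DESeq2 had called 6 and limma-voom 8. Calls over all genes, 970, were 2045 scaled to synaptic genes, 645 without the length trend, 370 with DESeq2, 46 against a 1.5-fold change, 186 and 24 at the fixed variations, and 513 to 738 when a library was left out.

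Calls among other splicing regulators, 9, were 4 without the length trend, 0 against a 1.5-fold change, 0 at both fixed variations and 7 to 10 when a library was left out. Among other mRNA regulators, 11, they were 5 scaled to synaptic genes, 5 without the length trend, 0 against a 1.5-fold change, 1 and 0 at the fixed variations and 9 to 10 when a library was left out. Among RNA targets, 4, they were 0 in these 3 strict settings and 3 to 4 when a library was left out. The causes were not tested.

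Without division by length, the shares of elav, fne and Rbp9 were 13.1%, 58.9% and 28.0% in VAChT:VGlut and 13.7%, 60.5% and 25.8% in VAChT:VGAT. Single libraries gave 11.1% to 11.3%, 56.7% to 57.0% and 31.9% to 31.9% in VAChT:VGlut, and 11.1% to 12.4%, 57.5% to 59.8% and 29.1% to 30.1% in VAChT:VGAT. By CPM alone ps ranked first, fne second and Fmr1 last.

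The labels do not say whether same-numbered libraries were processed together. Across genes, the correlation of their deviations from the group means was -0.03. This cannot decide whether they were paired, since replicates differed by little more than counting noise. With the replicate number as a block, 9 members were past the threshold, Rbfox1 (edgeR adjusted p = 0.0365) being added, and 1049 genes in all. At these depths Fmr1, with 254 to 493 counts, had the widest interval of the members.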
